A study of Danio rerio with 12 samples.

Results

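Whole zebrafish embryos that carry H2A.Z fused to the red fluorescent protein mCherry were compared with wild-type embryos after both had been kept in 5-aza-2'-deoxycytidine (5AzadC) until 12 hours post fertilisation (hpf). The comparison used 6 of the 12 total RNA libraries of the series, chosen by genotype and treatment alone, and covered the 12293 genes with enough counts to test out of 32520 in the count table. The groups were H2A.Z-mCherry embryos with 5AzadC and wild-type embryos with 5AzadC, with H2A.Z-mCherry embryos with DMSO and wild-type embryos with DMSO set beside them, at 3 libraries each. The stock was AB/Tuebingen, and the labels give the transgenic genotype as H2A.Z overexpression. Eggs went into 6-well plates just after fertilisation, about 50 to a well in 5 mL, and received 5AzadC at 100 µM or 0.1% DMSO as the control. The promoter of the fusion gene, the number of its insertions and the clutches behind the replicates were things not given in the sources used here, so p-values measure the spread between these libraries.

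H2A.Z is a variant of histone H2A that dedicated remodelling complexes place around promoters and enhancers, and in the early zebrafish embryo it marks DNA that is kept free of methylation. 5AzadC is a cytosine analogue that is built into newly made DNA and traps DNA methyltransferases there. Methylation is then lost as cells divide, and the trapped enzymes can set off the DNA damage response through p53. At 12 hpf the zebrafish embryo is forming somites, the neural plate and its outer skin layers.

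Library totals were 1355337 to 1904063 counts in H2A.Z-mCherry with 5AzadC and 1142051 to 1406110 in wild type with 5AzadC, so the wild-type libraries were on the whole shallower. The RNA of the signal recognition particle, rn7sl1, took 6.57% to 8.69% of counts in H2A.Z-mCherry with 5AzadC and 9.26% to 10.1% in wild type with 5AzadC. Leaving out rn7sl1 and the gene rn7sl1-2 gave 1912 called genes in place of the 1918 below. The 13 genes of the mitochondrial genome had no count in any library, so they give no reading of RNA quality. Of 14 defining tissue markers 13 were tested, 1 was higher (SOX3) and 2 were lower (krt4 and cldne) in H2A.Z-mCherry. Over all tested genes the shares were 8% higher and 7.61% lower, so these few calls do not set the markers apart. The endoderm gene SOX17 stayed at or under 5 CPM in all 6 libraries. The call of cldne was lost without H2A.Z-mCherry replicate 3 (adjusted p 0.107). Levels below are CPM, counts brought to a common library size with edgeR's TMM factors. The 3 values of a group are given in the order of replicates 1, 2 and 3. Symbols are spelled as in the count table or its reference names, which often use the human style. Zebrafish gene copies that share a symbol are told apart by their identifiers. Gene lists below were chosen with earlier results of these data known, so shares of called members describe these data and test nothing.

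With 5AzadC, H2A.Z-mCherry and wild-type embryos differed at 1918 of 12293 genes (15.6%) by edgeR's quasi-likelihood test at a Benjamini-Hochberg adjusted p under 0.05. H2A.Z-mCherry was higher at 983 genes (8%) and lower at 935 (7.61%), and 3417 genes had an unadjusted p under 0.05. The difference reached 1 on the log2 scale, a doubling or halving, at 788 called genes, with 396 of them higher and 392 lower. The median size over all called genes was 0.84 on the log2 scale, and the median log2 fold change over all tested genes was 0.0078. At 1788 of the called genes (93.2%) the CPM of the 3 libraries a side did not overlap, against 30.4% of all tested genes. Counts set what could be called: the share of genes called was 9.08% in the least abundant quartile of tested genes and 28.6% in the most abundant, where differences as small as 0.186 on the log2 scale passed. In the least abundant quartile the smallest called difference was 1.18. Without 1 library the count lay between 1401 and 2010 genes, lowest without wild-type replicate 1.

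**Figure D1:**
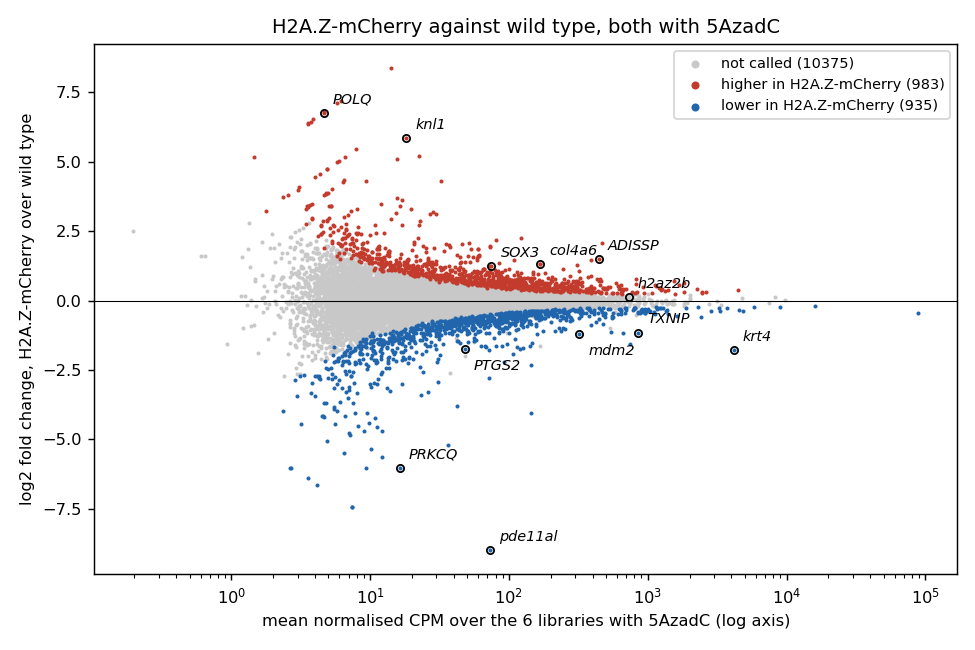
Log2 fold change of H2A.Z-mCherry over wild type, both with 5AzadC, on the vertical axis against mean CPM of the 6 libraries on a log axis, with 1 point per tested gene (12293). Red points are the 983 genes called higher and blue points the 935 called lower at an adjusted p under 0.05, and they lie on both sides of 0 at all but the lowest levels.

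The H2A.Z genes of the count table are given as a partial check of the line. H2A.Z-mCherry embryos with 5AzadC had 719, 850.2 and 705 CPM of h2az2b, against 708, 729 and 644 CPM in wild-type embryos with 5AzadC. The groups overlapped, and the log2 fold change of 0.13 ± 0.09 (SE) had an adjusted p of 0.362 in edgeR's test. Its partner H2AZ2, listed as h2az2a, had 61.7, 77.8 and 75.5 CPM in H2A.Z-mCherry and 64.8, 74.1 and 60 CPM in wild type, which also overlapped (0.12 ± 0.20, adjusted p 0.757). With DMSO, h2az2b averaged 473 ± 32.1 CPM in H2A.Z-mCherry and 394 ± 34.2 CPM in wild type (SD, n = 3 each; log2 fold change 0.27, edgeR adjusted p 0.0746). How transgene reads were counted was not stated, and no row of the table stands for the fusion gene, so these rows may or may not hold its reads.

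Among 20 tested genes whose products load, read or remove H2A.Z, 2 were higher and 2 lower in H2A.Z-mCherry with 5AzadC. These shares of 10% each were near the 8% and 7.61% of all tested genes, and the median log2 fold change was 0.09. BRD2, a bromodomain protein that binds acetylated chromatin rich in H2A.Z, was lower, with 331, 346 and 343 CPM in H2A.Z-mCherry against 539, 441 and 461 CPM in wild type (-0.50 ± 0.10, edgeR adjusted p 0.000114). ANP32E, a chaperone that takes H2A.Z out of chromatin, was higher, with 368, 378 and 331 CPM in H2A.Z-mCherry against 261, 271 and 261 CPM in wild type (0.44 ± 0.10, adjusted p 0.0013). Neither gene's groups overlapped. The remaining called members were EPC1 (ENSDARG00000060054), a scaffold of the NuA4 acetyltransferase complex, at -0.43, and VPS72 (ENSDARG00000063718), the H2A.Z chaperone subunit of SRCAP and p400, at 0.70. EPC1 lost its call without wild-type replicate 1 (adjusted p 0.107) or H2A.Z-mCherry replicate 2 (0.124). VPS72 lost it without wild-type replicate 1 (0.254), without H2A.Z-mCherry replicate 1 (0.0723), 2 (0.0609) or 3 (0.111), and in DESeq2 (0.0648).

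The DNA methylation machinery, which 5AzadC acts on, was measured at 11 genes. Of these 3 were higher in H2A.Z-mCherry with 5AzadC (27.3%, beside 8% of all tested genes) and none lower. All 11 had a positive log2 fold change, against 6219 of all 12293 tested genes. The list's median was 0.50, beside -0.10 for the same genes with DMSO. The level summed over all matched members of the list was 1756 to 1795 CPM in H2A.Z-mCherry with 5AzadC and 1241 to 1404 CPM in wild type with 5AzadC. With DMSO it was 1955 to 2097 CPM in H2A.Z-mCherry and 2058 to 2149.6 CPM in wild type, so the lines stood apart with the drug and overlapped without it.

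UHRF1, which brings the maintenance methyltransferase to newly copied DNA, had 208, 192 and 213 CPM in H2A.Z-mCherry with 5AzadC and 119, 142 and 126 CPM in wild type with 5AzadC. The groups did not overlap, and the log2 fold change was 0.66 ± 0.12 (edgeR adjusted p 2.80e-05). With DMSO the order was the other way round, at means of 203 CPM in H2A.Z-mCherry and 267 CPM in wild type (-0.39, adjusted p 0.0242). The de novo methyltransferase genes dnmt3ba and dnmt3bb.2 were also higher with 5AzadC. H2A.Z-mCherry had 571, 578 and 511 CPM of dnmt3ba against 382, 403 and 414 CPM in wild type (0.47 ± 0.09, adjusted p 0.000116). For dnmt3bb.2 it had 318, 300.5 and 312 CPM against 216, 234 and 206 CPM in wild type (0.50 ± 0.10, adjusted p 0.000229). DNMT1, the maintenance enzyme itself, had 208, 171 and 181 CPM in H2A.Z-mCherry and 141, 169.6 and 182 CPM in wild type, which overlapped (0.19 ± 0.12, adjusted p 0.3). Without wild-type replicate 2 the list had 5 higher members.

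Targets of p53 were lower in H2A.Z-mCherry than in wild type when both had received 5AzadC. Of 21 tested targets 9 were lower (42.9%, beside 7.61% of all tested genes) and none was higher, with a median log2 fold change of -0.48. Since earlier results were known when the list was chosen, the share describes these data and is no test. Across the 21 alternative fits, among them those without 1 library, the count of lower members lay between 7 and 12. The level summed over all matched members was 3227 to 3724 CPM in H2A.Z-mCherry with 5AzadC and 5039 to 5417 CPM in wild type with 5AzadC. With DMSO it was 1090.5 to 1223 CPM in H2A.Z-mCherry and 918 to 1281 CPM in wild type. In sum both lines thus held more of these transcripts with the drug than without it, and H2A.Z-mCherry held less than wild type with the drug. The sum does not speak for each member. In H2A.Z-mCherry, BTG2 averaged 393 CPM with 5AzadC and 358 CPM with DMSO. The drug difference within a line was not tested.

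The ubiquitin ligase gene mdm2, which p53 switches on and whose product degrades p53, had 169, 204 and 212 CPM in H2A.Z-mCherry with 5AzadC and 433, 464 and 440.5 CPM in wild type with 5AzadC (-1.19 ± 0.13, edgeR adjusted p 1.64e-10). The groups lay far apart. In the DMSO libraries mdm2 stood at 33.2, 44.1 and 36.5 CPM in H2A.Z-mCherry and 29.7, 22.4 and 50.8 CPM in wild type, which overlapped. The cell cycle inhibitor gene cdkn1a, the product of which is p21, had 39.9, 38.9 and 48.4 CPM in H2A.Z-mCherry with 5AzadC against 112, 93.8 and 77.6 CPM in wild type with 5AzadC (-1.15 ± 0.22, adjusted p 6.11e-05).

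SESN1, a sestrin that restrains growth signalling after stress, had 132, 149 and 172 CPM in H2A.Z-mCherry and 297, 314 and 354 CPM in wild type (-1.08 ± 0.13, edgeR adjusted p 1.47e-09). TP53INP1, which promotes p53-dependent cell death and autophagy, had 115, 108 and 116 CPM in H2A.Z-mCherry and 226, 252 and 246 CPM in wild type (-1.09 ± 0.16, adjusted p 8.79e-07). BTG2, an antiproliferative gene, had 386, 428 and 364 CPM in H2A.Z-mCherry and 621, 542 and 623 CPM in wild type (-0.60 ± 0.09, adjusted p 1.37e-06). No group of these overlapped its counterpart. BAX, which opens the mitochondrial outer membrane in apoptosis, was lower by a log2 fold change of -0.85 ± 0.17 (adjusted p 0.000205), and GADD45A (ENSDARG00000043581), a growth arrest and DNA damage gene, by -1.22 ± 0.29 (adjusted p 0.00227). PHLDA3 and TP73 made up the 9.

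Of 18 further genes of apoptosis and stress, 6 were lower (33.3%) and 1 was higher (5.56%), with a median of -0.49. Over all tested genes the shares were 7.61% lower and 8% higher. TXNIP (ENSDARG00000036107), an inhibitor of thioredoxin and of glucose uptake, had 546, 533 and 514 CPM in H2A.Z-mCherry and 1246, 1097 and 1184 CPM in wild type (-1.15 ± 0.10, edgeR adjusted p 7.43e-15). DDIT4, a stress-induced brake on mTOR, had 173, 238 and 199.9 CPM in H2A.Z-mCherry and 348, 330.1 and 353 CPM in wild type (-0.75 ± 0.12, adjusted p 9.72e-07). The transcription factor gene atf4a of the integrated stress response was lower with the drug (-0.53) and also with DMSO (-0.44, adjusted p 0.000506). The higher member was HSPA5, an endoplasmic reticulum chaperone, at 0.42 (adjusted p 0.042). The count of lower members was 3 without wild-type replicate 2 or without H2A.Z-mCherry replicate 2, and no member was called higher without wild-type replicate 1 or 2, without H2A.Z-mCherry replicate 2 or 3, with relative log expression (RLE) factors or in DESeq2.

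**Figure D2:**
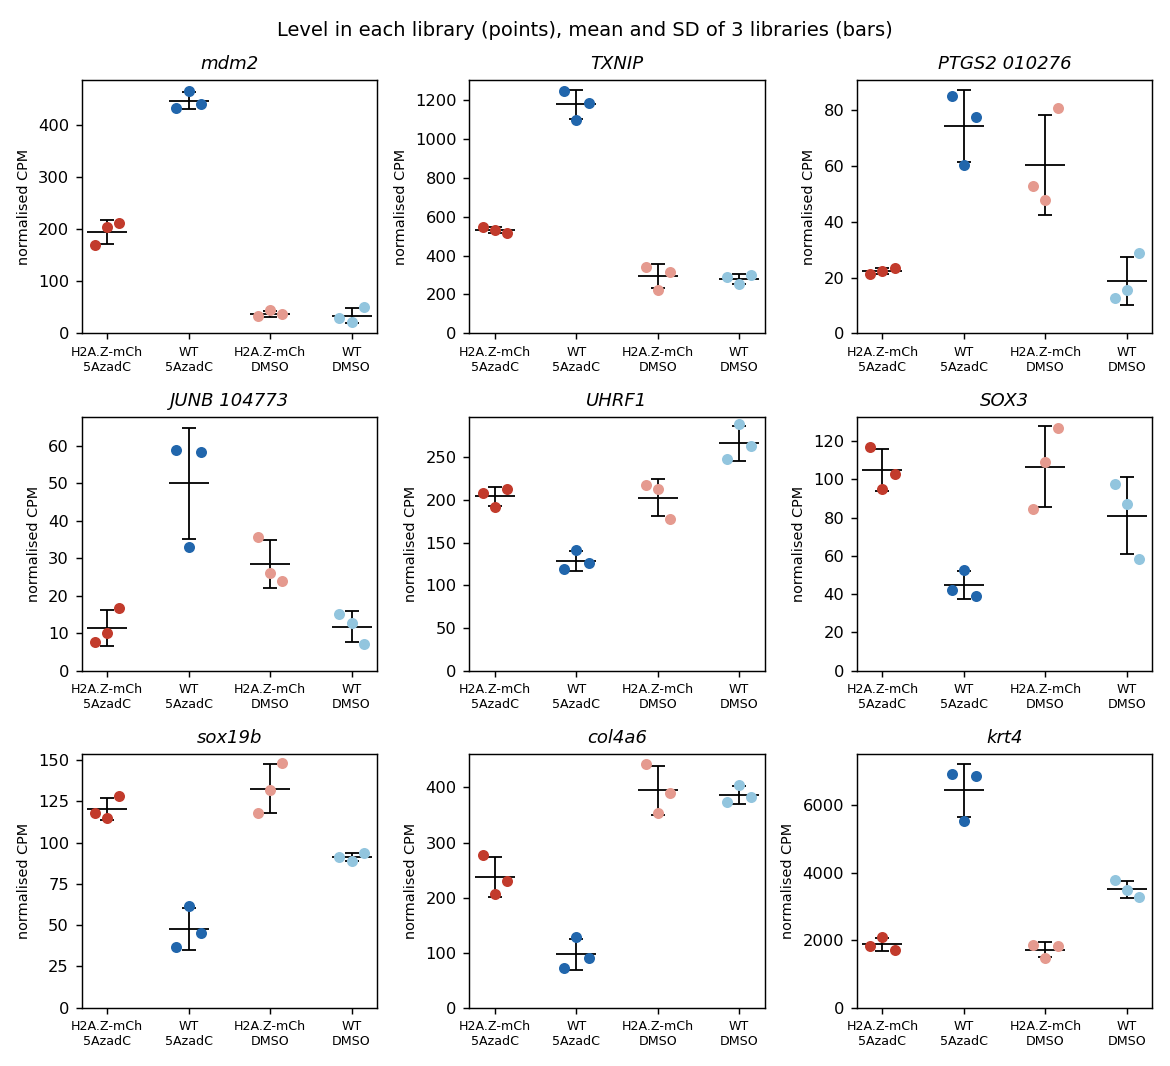
CPM of 9 genes in each of the 12 libraries, with 1 panel per gene and the groups from left to right as H2A.Z-mCherry with 5AzadC, wild type with 5AzadC, H2A.Z-mCherry with DMSO and wild type with DMSO. Points are libraries, and bars give the mean and SD (n = 3). With 5AzadC every H2A.Z-mCherry point of mdm2, TXNIP, PTGS2, JUNB and krt4 lies under every wild-type point, and every one of UHRF1, SOX3, sox19b and col4a6 lies above.

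Immediate early genes of the AP-1 family, which encode the Fos and Jun transcription factors, and genes that respond with them were lower with the drug and not without it. Of 16 tested, 9 were lower (56.2%, beside 7.61% of all tested genes) and none higher in H2A.Z-mCherry with 5AzadC. The median log2 fold change was -0.70. This list, like the others, was chosen with earlier results of these data known, so its share is a description and not a test. With DMSO 6 of the same 16 were higher in H2A.Z-mCherry and none lower, with a median of 0.56, where 2.73% of all genes were called higher. The summed level was 424 to 453 CPM in H2A.Z-mCherry with 5AzadC, 628 to 747 CPM in wild type with 5AzadC, 484 to 671 CPM in H2A.Z-mCherry with DMSO and 396 to 421 CPM in wild type with DMSO. Between 7 and 9 members were lower across the 21 alternative fits.

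PTGS2 (ENSDARG00000010276), the inducible cyclooxygenase that makes prostaglandins, had 21.1, 22.4 and 23.4 CPM in H2A.Z-mCherry with 5AzadC against 84.9, 60.1 and 77.6 CPM in wild type with 5AzadC (-1.73 ± 0.25, edgeR adjusted p 1.82e-07). With DMSO the order was the other way round, with 52.7, 47.6 and 80.7 CPM in H2A.Z-mCherry and 12.6, 15.5 and 28.7 CPM in wild type (log2 fold change 1.66, adjusted p 1.74e-06). Neither pair of groups overlapped.

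The JUNB copy ENSDARG00000104773 had 7.53, 10 and 16.7 CPM in H2A.Z-mCherry with 5AzadC and 58.8, 32.9 and 58.2 CPM in wild type with 5AzadC (-2.09 ± 0.32, edgeR adjusted p 7.12e-07), beside a log2 fold change of 1.27 with DMSO. That DMSO call was lost without wild-type DMSO replicate 3 (adjusted p 0.0987) or H2A.Z-mCherry DMSO replicate 1 (0.0752). The other copy, ENSDARG00000074378, differed by -2.22 with 5AzadC and by 2.42 with DMSO. FOSL1 had 11.3, 13.6 and 13 CPM in H2A.Z-mCherry with 5AzadC and 43.9, 37.9 and 35.1 CPM in wild type with 5AzadC (-1.62 ± 0.34, adjusted p 0.000349). FOS, which the list did not hold, had 36.1, 48.9 and 45.8 CPM in H2A.Z-mCherry with 5AzadC and 93.8, 71.6 and 97.9 CPM in wild type with 5AzadC (-1.0 ± 0.23, adjusted p 0.000942), and differed by 2.16 with DMSO. No 5AzadC group of these 4 genes overlapped its counterpart. The list's other lower members were fosaa, JUN, ier2a, ier2b and ets2, of which fosaa stood at no more than 1.04 CPM in H2A.Z-mCherry and at 6.59 to 7.39 CPM in wild type.

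Only 8 genes of interferon signalling and RNA sensing had enough counts to test, with 1 higher and 1 lower. Over all tested genes the shares were 8% higher and 7.61% lower, so 1 call each way among 8 genes does not set the list apart. The exonuclease gene isg20 had 21.1, 63.6 and 22.9 CPM in H2A.Z-mCherry with 5AzadC and 5.21, 2.47 and 2.77 CPM in wild type with 5AzadC (3.31 ± 0.52, edgeR adjusted p 2.90e-06), and was also higher with DMSO (2.62, adjusted p 0.00325), a DMSO call lost without H2A.Z-mCherry DMSO replicate 2 (0.113). The RNA-editing gene adar differed by -0.35 (adjusted p 0.0217) and lost its call without wild-type replicate 3 (0.104), H2A.Z-mCherry replicate 1 (0.143) or replicate 2 (0.0731), and with no filter on low counts (0.0532).

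Neural progenitor genes were higher in H2A.Z-mCherry with 5AzadC. Of 19 tested, 9 were higher (47.4%, beside 8% of all tested genes) and none lower. As for the other lists, the choice was made with earlier results known, so the share is not a test. The median log2 fold change was 0.68, beside 0 with DMSO. Their summed level was 1108 to 1139.7 CPM in H2A.Z-mCherry with 5AzadC and 710.2 to 803 CPM in wild type with 5AzadC, against 1263 to 1317 CPM in H2A.Z-mCherry and 1245 to 1334 CPM in wild type with DMSO. The count was 5 without wild-type replicate 3. In whole embryos fewer cells of a type and less RNA per cell cannot be told apart, here and for every tissue list that follows.

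The SoxB1 factors hold cells in the neural progenitor state. Of these, sox19b had 118, 115 and 128 CPM in H2A.Z-mCherry with 5AzadC and 36.5, 61.7 and 45.2 CPM in wild type with 5AzadC (1.34 ± 0.17, edgeR adjusted p 6.73e-09). SOX3 had 117, 94.9 and 103 CPM in H2A.Z-mCherry and 42.4, 52.7 and 38.8 CPM in wild type (1.23 ± 0.19, adjusted p 8.14e-07). Neither pair of groups overlapped. The RNA-binding gene MSI1 had 105, 75.4 and 88.5 CPM in H2A.Z-mCherry and 36.5, 47.7 and 54.5 CPM in wild type (0.96 ± 0.20, adjusted p 0.00034). NCAM1 (ENSDARG00000056181), a neural cell adhesion gene, had 18.1, 14.7 and 15.6 CPM in H2A.Z-mCherry and 5.21, 5.76 and 2.77 CPM in wild type (1.76 ± 0.39, adjusted p 0.000526), under its DMSO means of 76.3 CPM in H2A.Z-mCherry and 67.2 CPM in wild type. The neuronal RNA-binding gene ELAVL3, sox19a, ZIC1 and ZIC2 were further higher members, at 0.40 to 1.05 on the log2 scale. With DMSO sox19b was higher as well, at means of 133 CPM in H2A.Z-mCherry and 91.4 CPM in wild type (0.54, edgeR adjusted p 0.0233). SOX3 was not called with DMSO (0.39, adjusted p 0.209).

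Genes that pattern the brain and eye were higher with 5AzadC at 7 of 33 (21.2%) and lower at 1 (3.03%), with a median of 0.39. Over all tested genes the shares were 8% and 7.61%. PAX6 (ENSDARG00000045936), the eye field and forebrain factor, had 90.3, 67.2 and 65.6 CPM in H2A.Z-mCherry and 42.4, 49.4 and 35.1 CPM in wild type (0.80 ± 0.20, edgeR adjusted p 0.00234). The groups did not overlap. DBX1 (ENSDARG00000086393, 1.49), of spinal cord interneurons, and OTX1 (0.76), of the anterior brain, were higher too, with adjusted p of 0.0117 and 0.0167 in that order. Both lost their call without 1 library or more: DBX1 without H2A.Z-mCherry replicate 2 (0.0989), and OTX1 without wild-type replicate 3 (0.199) or H2A.Z-mCherry replicate 1 (0.0527). Higher members numbered 4 without wild-type replicate 1, wild-type replicate 3 or H2A.Z-mCherry replicate 1, 3 without H2A.Z-mCherry replicate 2, and 4 in a fit of the 6 libraries alone. Further higher members were foxd1, GBX1 and IRX1. The lower member, PAX8 (-0.75, adjusted p 0.0482), lost its call under 12 of 21 alternatives. Among these were fits without wild-type replicate 1 (0.299) or 3 (0.056), without H2A.Z-mCherry replicate 1 (0.104) or 3 (0.273), without wild-type DMSO replicate 1 (0.0521) or H2A.Z-mCherry DMSO replicate 3 (0.0512), in DESeq2 (0.0705), with upper quartile factors (0.053), with no filter on low counts (0.083), with a 5 CPM filter (0.0514) and at equal depth (0.111).

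**Figure D3:**
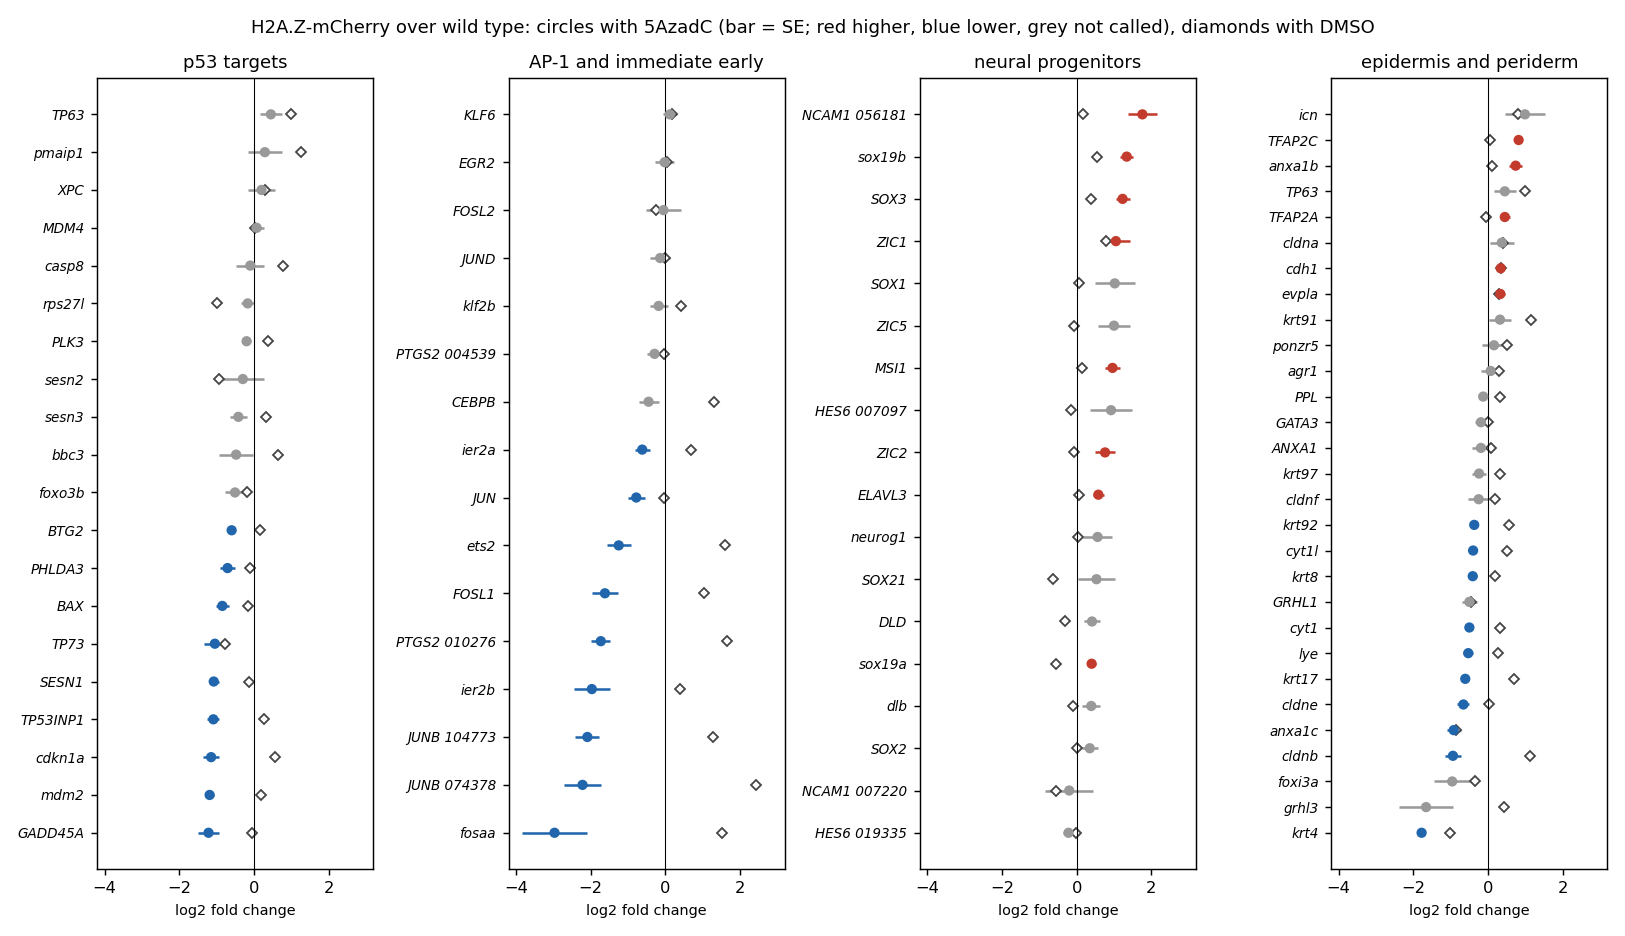
Log2 fold change of H2A.Z-mCherry over wild type for tested members of 4 gene lists: p53 targets, AP-1 and immediate early genes, neural progenitors, and epidermis and periderm. Circles with bars (SE) are the 5AzadC comparison and diamonds the DMSO comparison. In the AP-1 panel the called circles lie at -0.62 or lower, and in the neural panel at 0.40 or higher.

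Epidermis and periderm genes were split, with 10 of 29 lower (34.5%) and 5 higher (17.2%) in H2A.Z-mCherry with 5AzadC and a median of -0.24. Over all tested genes the shares were 7.61% lower and 8% higher. With DMSO 8 of the same genes were higher (beside 2.73% of all tested genes) and 2 lower (beside 2.59%), with a median of 0.30. The summed level was 7494 to 9371 CPM in H2A.Z-mCherry with 5AzadC and 12625 to 15033 CPM in wild type with 5AzadC, against 6354 to 7537 CPM in H2A.Z-mCherry and 7263 to 8115 CPM in wild type with DMSO. A large part of these sums came from krt4, a keratin gene of the outer enveloping layer, so they do not speak for the list as a whole. The gene krt4 had 1831, 2086 and 1699.9 CPM in H2A.Z-mCherry with 5AzadC and 6919.9, 5531 and 6853 CPM in wild type with 5AzadC (-1.78 ± 0.09, edgeR adjusted p 1.65e-17). It was also lower with DMSO, at a mean of 1719.8 CPM in H2A.Z-mCherry and 3506 CPM in wild type (-1.03, adjusted p 6.23e-11).

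Other keratins were lower with the drug by less. The keratin gene cyt1 had 1102, 1327 and 1066 CPM in H2A.Z-mCherry with 5AzadC and 1678, 1506 and 1767 CPM in wild type with 5AzadC (-0.50 ± 0.08, edgeR adjusted p 6.76e-06), and krt17 had 403, 520.3 and 399 CPM in H2A.Z-mCherry and 716, 609 and 689.8 CPM in wild type (-0.61 ± 0.11, adjusted p 0.000116). Neither overlapped between the groups, and both were higher in H2A.Z-mCherry with DMSO (0.32 and 0.69). The DMSO call of cyt1 was lost without wild-type DMSO replicate 3 (0.0844) or H2A.Z-mCherry DMSO replicate 1 (0.119). The tight junction gene cldnb, chosen after its values were seen, had 56.4, 79.5 and 37.5 CPM in H2A.Z-mCherry with 5AzadC and 99.8, 89.7 and 144 CPM in wild type with 5AzadC (-0.94 ± 0.21, adjusted p 0.000624), beside 1.12 with DMSO.

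Among the 5 higher members were transcription factors of the early ectoderm. TFAP2C had 395, 431 and 411 CPM in H2A.Z-mCherry with 5AzadC and 239.7, 249 and 211 CPM in wild type with 5AzadC (0.82 ± 0.10, edgeR adjusted p 1.56e-09), with no overlap. TFAP2A, which neural crest cells share, differed by 0.45 and lost its call without wild-type replicate 3 (0.108) or H2A.Z-mCherry replicate 2 (0.0657) and in libraries thinned to equal depth (0.0662). The others were the annexin gene anxa1b, the cadherin gene cdh1 and the envoplakin gene evpla. There were 3 higher members without wild-type replicate 2 or 3, 2 without H2A.Z-mCherry replicate 2 and 3 at equal depth. The count of lower members stayed between 7 and 11 across the 21 alternative fits.

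In the mesoderm lists the share of members called higher was near that of all tested genes (8%) or 0, apart from notochord and floor plate. In the notochord and floor plate list loxl5b, NTN1 and FOXJ1 were higher, 3 of 21 genes (14.3%, median 0.36). The groups of NTN1 overlapped. The count of higher members was 1 without wild-type replicate 1, wild-type replicate 2, H2A.Z-mCherry replicate 1 or H2A.Z-mCherry replicate 3 and 0 at equal depth. In the somite and presomitic mesoderm list 3 of 36 were higher (8.33%), namely msgn1, MEOX1 and the ephrin receptor gene EPHA4, and 1 was lower (2.78%, beside 7.61% of all tested genes; median 0.21). The presomitic factor gene msgn1 had 137, 133 and 179.6 CPM in H2A.Z-mCherry and 99, 98.8 and 70.2 CPM in wild type (0.74 ± 0.15, edgeR adjusted p 0.000223), without overlap. The somite factor gene MEOX1 was higher with the drug (1.03, adjusted p 0.00165) and with DMSO (2.25, adjusted p 8.25e-10). The lower member was FN1 (ENSDARG00000006526), the fibronectin gene, at -0.28, and its call was lost without wild-type replicate 1 (0.0841) or H2A.Z-mCherry replicate 1 (0.0806) or 2 (0.0586); without wild-type replicate 2 there were 2 lower members, as with RLE factors and at equal depth. No member of the skeletal muscle, blood and endothelium or heart and lateral plate lists was called higher. Lower were 2 of 25 skeletal muscle genes (8%), the actin gene actc1a (-0.43, edgeR adjusted p 0.00273) and the calcium channel gene RYR1 (ENSDARG00000011422, -1.18, adjusted p 0.0258). The same held for 1 of 11 blood and endothelium genes (9.09%), the haematopoietic factor gene npas4l (-0.80, adjusted p 0.00546), and for 1 of 17 heart and lateral plate genes (5.88%), which is PAX8 again. The groups of actc1a overlapped. The muscle counts were 0 lower without wild-type or H2A.Z-mCherry replicate 3 and up to 2 higher without 1 library. The npas4l call was lost without wild-type replicate 1 (0.0688). Of 10 endoderm genes edgeR called none, and the one with the smallest p, FOXA1, differed by 1.36 (adjusted p 0.0529). Without H2A.Z-mCherry replicate 2, 1 endoderm gene was called higher and 1 lower, and with upper quartile factors 1 was called higher.

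The yolk syncytial layer feeds yolk lipid and protein to the embryo. It had 4 of 20 genes higher (20%, beside 8% of all tested genes) and 2 lower (10%, beside 7.61%; median -0.02). Its lipid carrier apobb.1 had 4727, 5553 and 4867 CPM in H2A.Z-mCherry and 3649, 3712 and 4357 CPM in wild type (0.37 ± 0.07, edgeR adjusted p 9.17e-05), while the copy apobb.2 had 27.1, 28.9 and 40.1 CPM in H2A.Z-mCherry and 52.9, 44.5 and 71.1 CPM in wild type (-0.78 ± 0.21, adjusted p 0.00627). Neither overlapped between the groups. The apobb.2 call was lost without wild-type replicate 3 (0.083). The other higher members were tfa, whose groups overlapped, serpina1 and serpina1l, genes for secreted plasma proteins. The other lower member was apoa1b. With DMSO apobb.2 was lower too (-1.05, edgeR adjusted p 2.29e-05), and tfa (0.48, adjusted p 0.00266) and serpina1l (0.85, adjusted p 0.01) were higher. The DMSO difference of apobb.1 was 0.07 (adjusted p 0.721). With 5AzadC higher members numbered 2 without wild-type replicate 2 and 1 without H2A.Z-mCherry replicate 2, and lower members 1 without wild-type replicate 3 or H2A.Z-mCherry replicate 1 or 3.

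Hox genes, which set position along the trunk, had 3 of 31 higher (9.68%) and 2 lower (6.45%), near the 8% and 7.61% of all tested genes (median 0.26). The hindbrain gene hoxa2b had 9.03, 2.95 and 8.85 CPM in H2A.Z-mCherry and 2.23, 0 and 0 CPM in wild type, a count ratio of 8.34 (2.62 to 42.4), without overlap. The trunk genes HOXC6 (ENSDARG00000070343, -0.69) and HOXC8 (-0.88) were the lower members. No hox gene was higher in a fit of the 6 libraries alone, and 1 was in DESeq2, with no filter on low counts, at equal depth and without wild-type replicate 3 or H2A.Z-mCherry replicate 1 or 3. None was lower without wild-type replicate 1 or H2A.Z-mCherry replicate 2, and 1 was with no filter on low counts, at equal depth and without H2A.Z-mCherry replicate 3.

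In the germline list, 2 of 9 were higher and 2 lower (22.2% each, beside 8% and 7.61% of all tested genes). The helicase gene ddx43 had 57.2, 96.6 and 69.2 CPM in H2A.Z-mCherry and 19.4, 25.5 and 8.31 CPM in wild type (2.05 ± 0.29, edgeR adjusted p 2.32e-07), without overlap, and was higher with DMSO as well (1.78, adjusted p 1.47e-05). CELF1, an RNA-binding gene, was higher by 0.32, and the germ plasm gene DND1 and the piRNA gene PIWIL2 were lower, at -2.56 and -1.58. Neither was called lower without wild-type replicate 3, where the adjusted p were 0.219 for DND1 and 0.211 for PIWIL2, and CELF1 lost its call without wild-type replicate 1 (0.0817) or 3 (0.0693) or H2A.Z-mCherry replicate 2 (0.0595) or 3 (0.0616). DND1 also lost it without H2A.Z-mCherry replicate 3 (0.0749), and PIWIL2 without H2A.Z-mCherry replicate 1 (0.0881) or 2 (0.113).

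**Figure D4:**
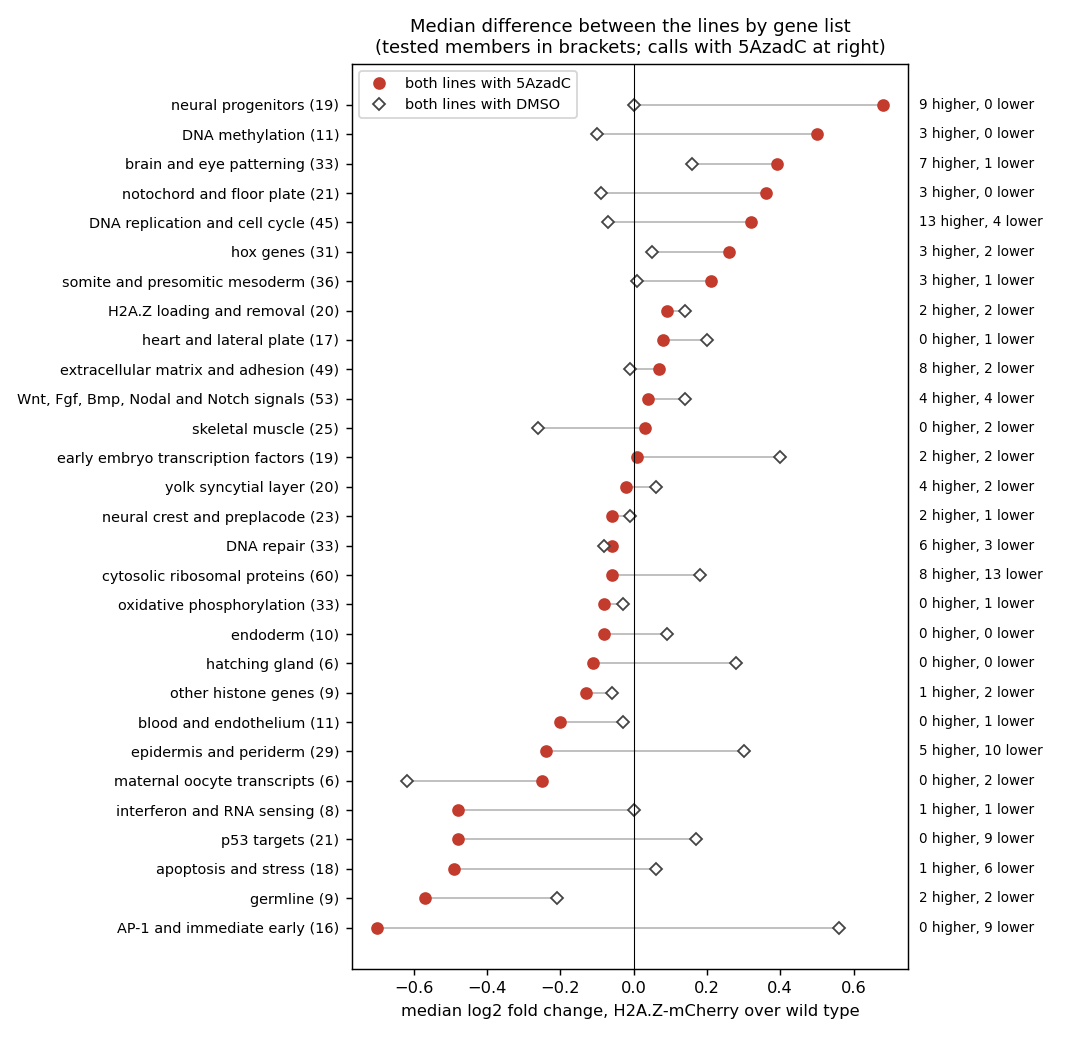
Median log2 fold change of H2A.Z-mCherry over wild type over the tested members of 29 gene lists with 5 or more tested members. Red circles are the 5AzadC comparison and open diamonds the DMSO comparison, and the numbers at the right count members called higher and lower with 5AzadC. The neural progenitor list lies at 0.68 and the AP-1 list at -0.70, beside 0.0078 for all tested genes.

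Genes of DNA replication and the cell cycle were more often higher than lower, with 13 of 45 higher (28.9%), 4 lower (8.89%) and a median of 0.32. Over all tested genes the shares were 8% and 7.61%. The count of higher members was 5 without wild-type replicate 1, 6 without H2A.Z-mCherry replicate 1 and 8 without H2A.Z-mCherry replicate 3, so its size rests on these libraries. The lower members were CCNB1, bub1, ORC1 and a copy of RRM2. With DMSO 1 of the 45 was higher and 4 were lower, beside 2.73% and 2.59% of all tested genes. ORC1 was lower with DMSO as well (-3.11, edgeR adjusted p 0.000453). MCM2, a subunit of the replicative helicase, had 309, 283 and 288 CPM in H2A.Z-mCherry with 5AzadC and 176, 212 and 184 CPM in wild type with 5AzadC (0.62 ± 0.11, edgeR adjusted p 6.91e-06), without overlap, and MCM3 differed by 0.54 ± 0.10 (adjusted p 4.85e-05). RRM2, a subunit of the enzyme that makes deoxynucleotides, has a pair of copies that went opposite ways. The copy ENSDARG00000078069 had 96.3, 88.4 and 75.5 CPM in H2A.Z-mCherry and 29, 35.4 and 29.6 CPM in wild type (1.46 ± 0.21, adjusted p 1.03e-07). The copy ENSDARG00000020711 had 7.53, 2.36 and 5.73 CPM in H2A.Z-mCherry and 19.4, 21.4 and 16.6 CPM in wild type (-1.89 ± 0.45, adjusted p 0.00125). The same directions held with DMSO (0.82 and -2.45), and the handling of reads shared by these copies was not stated.

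DNA repair genes had 6 of 33 higher (18.2%, beside 8% of all tested genes) and 3 lower (9.09%, beside 7.61%), with a median of -0.06. XRCC5, which encodes Ku80 of the end-joining pathway, had 57.2, 47.1 and 61.4 CPM in H2A.Z-mCherry with 5AzadC and 165, 208 and 183 CPM in wild type with 5AzadC (-1.74 ± 0.16, edgeR adjusted p 2.45e-14). The groups did not overlap, and the DMSO difference was -0.69. The translesion polymerase gene REV1 had 33.1, 37.1 and 42.2 CPM in H2A.Z-mCherry and 96.8, 53.5 and 93.3 CPM in wild type (-1.11 ± 0.23, adjusted p 0.000283). The third lower member was DDB1, of ultraviolet damage recognition. The mismatch repair gene MSH6 was higher (0.54, adjusted p 0.00662) but not without wild-type replicate 1 (0.105) or H2A.Z-mCherry replicate 1 (0.0802). The 6 higher members became 2 without wild-type replicate 1, 1 without wild-type replicate 3, 3 without H2A.Z-mCherry replicate 1 and 1 without H2A.Z-mCherry replicate 2.

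Extracellular matrix and adhesion genes had 8 of 49 higher (16.3%, beside 8% of all tested genes) and 2 lower (4.08%, beside 7.61%), with a median of 0.07. The basement membrane collagen gene col4a6 had 278, 206 and 229.6 CPM in H2A.Z-mCherry with 5AzadC and 71.5, 128 and 90.5 CPM in wild type with 5AzadC (1.3 ± 0.14, edgeR adjusted p 3.35e-10). Its DMSO means were 395 CPM in H2A.Z-mCherry and 387 CPM in wild type, so it was below them in both lines with the drug and lowest in wild type. COL5A2, a fibrillar collagen, had 50.4, 23.6 and 41.1 CPM in H2A.Z-mCherry and 8.19, 6.59 and 14.8 CPM in wild type (1.97 ± 0.30, adjusted p 7.34e-07). CDH2, the N-cadherin of neural and mesodermal cells, had 333, 349 and 396 CPM in H2A.Z-mCherry and 222, 235 and 279.8 CPM in wild type (0.56 ± 0.10, adjusted p 3.12e-05). None of these overlapped between the groups. The lower members were COL12A1 and FN1. Without wild-type replicate 1 the count of higher members was 5, and the count of lower members was 0 or 1 without wild-type replicate 1 or 3 or any 1 of the H2A.Z-mCherry replicates.

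Of 53 genes of the Wnt, Fgf, Bmp, Nodal and Notch pathways 4 were higher and 4 lower (7.55% each), near the 8% and 7.61% of all tested genes, with a median of 0.04. The receptor gene NOTCH1 has a pair of copies. ENSDARG00000103554 had 888, 970.4 and 964 CPM in H2A.Z-mCherry and 1429, 1299.8 and 1262 CPM in wild type (-0.50 ± 0.08, edgeR adjusted p 1.61e-06), and ENSDARG00000052094 had 397, 322 and 348 CPM in H2A.Z-mCherry and 243, 291 and 266 CPM in wild type (0.42 ± 0.10, adjusted p 0.00135). Both lay outside the range of the other line, in opposite directions. ID3, a Bmp target that blocks helix-loop-helix factors, differed by -0.75 ± 0.18 (adjusted p 0.00115). The ligand gene FGF8 was higher (0.78, adjusted p 0.00271) but not without wild-type replicate 1 (0.0542). Higher members numbered 2 without wild-type replicate 1 or H2A.Z-mCherry replicate 1, and lower members 2 without wild-type replicate 1 or 3 or H2A.Z-mCherry replicate 3.

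Ribosomal protein genes were called often with 5AzadC, and 28.6% of the most abundant quartile of tested genes were called too. Whether abundance accounts for the ribosomal calls was not tested. Of 60 tested, 8 were higher (13.3%, beside 8% of all tested genes) and 13 lower (21.7%, beside 7.61%), with a median of -0.06. With DMSO 16 of the same 60 were higher in H2A.Z-mCherry and 1 was lower, with a median of 0.18. Of all tested genes 2.73% were called higher and 2.59% lower with DMSO. RPS16 had 489, 594 and 574 CPM in H2A.Z-mCherry with 5AzadC and 341, 359.7 and 315 CPM in wild type with 5AzadC (0.71 ± 0.10, edgeR adjusted p 6.01e-08), and RPS29 had 579, 573 and 558 CPM in H2A.Z-mCherry and 410.2, 315 and 315 CPM in wild type (0.71 ± 0.10, adjusted p 3.70e-08). Neither overlapped, and both were higher in H2A.Z-mCherry with DMSO as well (0.90 and 0.81). RPL26 had 625, 808 and 805 CPM in H2A.Z-mCherry and 1098, 1049 and 927 CPM in wild type (-0.46 ± 0.09, adjusted p 6.35e-05). With 5AzadC the count of lower members was 6 without H2A.Z-mCherry replicate 3 and that of higher members 5 without H2A.Z-mCherry replicate 2. Among the most abundant called genes, the actin gene actb2 had 4039, 4534 and 4093 CPM in H2A.Z-mCherry and 5581, 5344 and 5674 CPM in wild type (-0.39 ± 0.07, adjusted p 1.76e-05).

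The largest differences were at genes with almost no counts in one of the lines, and most were of the same kind with DMSO. The phosphodiesterase-like gene pde11al had 1 count over the 3 H2A.Z-mCherry libraries with 5AzadC and 526 over the 3 wild-type libraries with 5AzadC, a wild-type over H2A.Z-mCherry ratio of 715 per unit of library (95% interval 128 to 28280.3 from counting error alone). The ratios that follow are likewise of the line with more counts over the line with fewer. All of them compare assigned counts. Whether reads of one line were assigned less fully at these genes was not tested. With DMSO it averaged 1.69 CPM in H2A.Z-mCherry and 94.7 CPM in wild type. PRKCQ, a protein kinase C of immune cells in mammals, had 2 counts in H2A.Z-mCherry and 116 in wild type, a ratio of 78.8 (21.3 to 658). The kinetochore gene knl1 went the other way, with 182 counts in H2A.Z-mCherry and 2 in wild type, a ratio of 67 (18.3 to 557), and DMSO means of 36.2 CPM in H2A.Z-mCherry and 1.69 CPM in wild type. CSRP3, a muscle LIM protein gene, had 38 counts in H2A.Z-mCherry with 5AzadC and none in wild type with 5AzadC, at least 9.32-fold higher against 3 counts over the group, but its DMSO means of 5.04 CPM in H2A.Z-mCherry and 4.33 CPM in wild type were close (log2 fold change 0.23, edgeR adjusted p 0.924). Among the 12 highest and 12 lowest, odf3l2a, znf1065, si:ch211-201o1.1, ap1m3 and si:dkey-222f8.6 were not called with DMSO either. The 12 highest held 3 copies annotated as the spliceosomal RNA U1, a symbol that 182 genes share, so their counts are uncertain.

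Some of these genes lie next to each other. In the gene order of the RefSeq annotation of GRCz12tu, 8575 tested genes could be placed by symbol, and 136 of them were called with a log2 fold change of 2 or more in size. Among these, 11 pairs lay within 5 protein-coding genes of each other, and 10 of the 11 differed in the same direction. The pairs share members and hold 17 genes. Of the 471 places within that distance of the 136 genes that another placed gene holds, 22 (4.67%) fell to one of the 136, which are 1.59% of all placed genes. A haplotype difference between the fish, the insertion site and the fusion protein cannot be told apart here, since each goes with the line. MAST2, a microtubule-associated kinase gene, had 1 count in H2A.Z-mCherry and 68 in wild type (ratio 92.4, 16 to 3702), and 1 gene separates it from GPBP1L1, which had 1.51, 7.66 and 2.6 CPM in H2A.Z-mCherry and 40.9, 44.5 and 43.4 CPM in wild type. ORC1, of the origin recognition complex, and ap1m3, of a clathrin adaptor, follow in the same stretch and were lower too. ORC1 differed by -2.33, and ap1m3 had 1 count in H2A.Z-mCherry and 47 in wild type (ratio 63.9, 10.9 to 2575). ORC1 lost its call without wild-type replicate 2 (adjusted p 0.149). On the higher side, the repair polymerase gene POLQ had 46 counts in H2A.Z-mCherry and none in wild type (at least 11.3-fold higher), and PCF11, of transcript cleavage, with 1 gene between, had 58 counts in H2A.Z-mCherry and 1 in wild type (ratio 42.7, 7.36 to 1715). GPBP1L1, ORC1 and PCF11 were named for their place after their values were seen.

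Whether the difference between the lines was another one with 5AzadC than with DMSO was tested as the interaction in the same edgeR fit. It was called at 461 genes (3.75%), of which 233 (1.9%) had a more positive and 228 (1.85%) a more negative H2A.Z-mCherry difference with the drug. For comparison, 654 genes (5.32%) differed between the lines with DMSO, 336 of them higher in H2A.Z-mCherry (2.73%) and 318 lower (2.59%), and at 21.5% of genes the DMSO libraries of the lines did not overlap. The interaction was negative at 9 of 16 AP-1 and immediate early genes, 8 of 29 epidermis genes, 5 of 21 p53 targets and 15 of 60 ribosomal protein genes, and positive at 8 of 45 replication and cell cycle genes, 4 of 19 neural progenitor genes and 2 of 11 DNA methylation genes.

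Several of these interaction counts rest on single libraries. The p53 count was 9 without wild-type DMSO replicate 3. The ribosomal count was 5 without wild-type DMSO replicate 1 and 8 without H2A.Z-mCherry 5AzadC replicate 3. For replication it was 3 without wild-type 5AzadC replicate 1, 4 without H2A.Z-mCherry 5AzadC replicate 1 and 5 without wild-type DMSO replicate 2 or H2A.Z-mCherry DMSO replicate 2 or 3. For neural progenitors it was 1 without wild-type 5AzadC replicate 1 or 3, H2A.Z-mCherry DMSO replicate 1 or H2A.Z-mCherry 5AzadC replicate 1, and 2 without wild-type DMSO replicate 1 or 2, H2A.Z-mCherry DMSO replicate 2 or H2A.Z-mCherry 5AzadC replicate 3. The AP-1 count was 8 or 9, the epidermis count 7 to 10 and the DNA methylation count 2 throughout.

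The single gene with the smallest interaction p was ftr86, of a fish-specific family of TRIM genes. It had 79.8, 73.1 and 76 CPM in H2A.Z-mCherry with 5AzadC and 236, 200.0 and 215 CPM in wild type with 5AzadC (-1.51 ± 0.14), beside means of 155 CPM in H2A.Z-mCherry and 69.6 CPM in wild type with DMSO (1.15), and an interaction of -2.66 (edgeR adjusted p 2.49e-17). The order of the lines was opposite with and without the drug. The polarity gene crb2a had 39.1, 41.2 and 53.1 CPM in H2A.Z-mCherry with 5AzadC and 197, 156 and 153 CPM in wild type with 5AzadC, and means of 67 CPM in H2A.Z-mCherry and 63.8 CPM in wild type with DMSO (interaction -1.98, adjusted p 4.45e-08).

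In the positive direction, ADISSP, which encodes a secreted adipose signal in mammals, had 683, 668 and 611 CPM in H2A.Z-mCherry with 5AzadC and 209.9, 239.5 and 242 CPM in wild type with 5AzadC (1.51 ± 0.10), beside 0.40 with DMSO (interaction 1.11, edgeR adjusted p 8.99e-09). The hydroxylase gene asph had 425, 416 and 472 CPM in H2A.Z-mCherry and 168, 196 and 181 CPM in wild type with the drug (1.27 ± 0.11), and FSTL1 (ENSDARG00000039576), a secreted follistatin-like glycoprotein gene, had 242, 229 and 247 CPM in H2A.Z-mCherry and 72.2, 119 and 95.1 CPM in wild type (1.33 ± 0.13). None of these groups overlapped with the drug. With DMSO asph differed by 0.06 and FSTL1 by -0.05, and their interactions were 1.21 (adjusted p 6.20e-08) and 1.38 (adjusted p 6.73e-08).

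**Figure D5:**
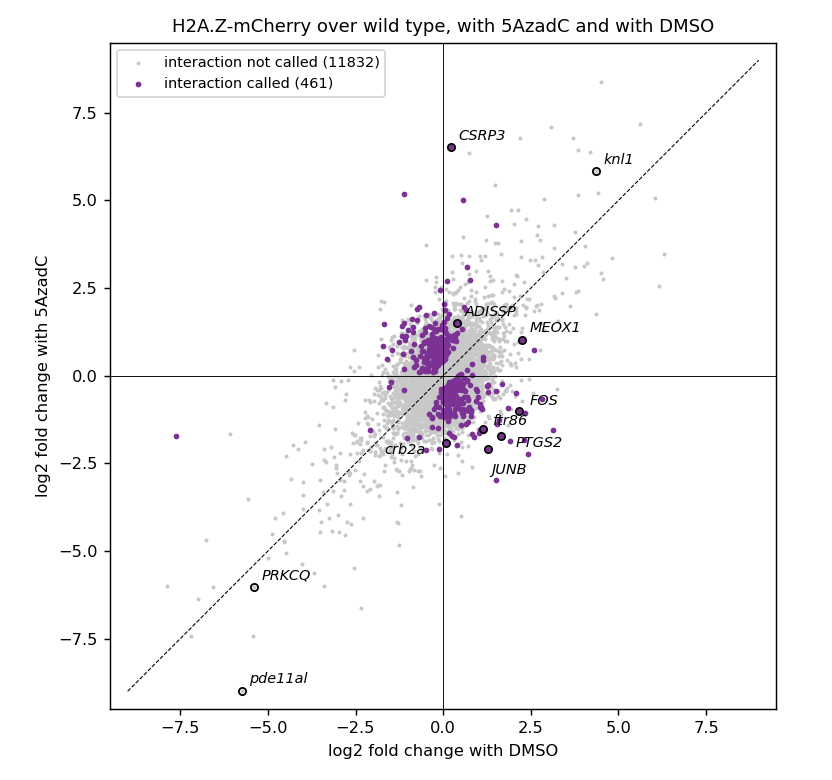
Log2 fold change of H2A.Z-mCherry over wild type with 5AzadC on the vertical axis against the same with DMSO on the horizontal axis, with 1 point per tested gene. Purple points are the 461 genes with a called interaction and grey points the other tested genes. PTGS2, the JUNB copies and FOS lie at positive DMSO and negative 5AzadC values.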

How the data were processed

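Total RNA from whole embryos at 12 hpf was sequenced in 12 libraries, 3 per group. Per the submitters' processing notes, STAR, featureCounts 2.0.3, Subread, DESeq2 1.22.2, deepTools and GRCz11 were used. Strand setting and the treatment of multi-mapping reads were items not given in the sources used here. The authors deposited raw gene counts, not normalised. The tests here used edgeR 4.0.16 under R 4.3.3: filterByExpr kept 12293 genes with 98.5% of counts, TMM factors were applied, and all 12 libraries entered 1 robust quasi-likelihood fit with a coefficient per group, since 3 libraries a group give little information on spread. The contrasts were H2A.Z-mCherry against wild type with 5AzadC, the same with DMSO, and their difference (the interaction). A call means an adjusted p (Benjamini-Hochberg, all tested genes) under 0.05, and every adjusted p is edgeR's unless DESeq2 is named. The standard error of a log2 fold change is its size over the square root of F. With 3 libraries a side an exact permutation test of a single gene cannot go below 0.1. Each library was compared with its replicates: their counts differed by 2.39 to 3.17 times the variance that counting gives (chi-square per degree of freedom), more than 1 library sequenced again would give. Where a group had no count, the fold was set against 3 counts over that group and is a lower bound; with 1 to 3 counts it is a ratio of library-scaled counts with an exact binomial 95% interval. These cover counting error only.

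Members and the 32 gene lists were chosen with earlier results of these data known. Of 967 listed symbols 937 genes matched and 650 were tested; no set test was made. Genes were picked by rule, and not all 127 of them are described above. The rule took the 12 highest and 12 lowest called with a symbol and no overlap. It also took up to 4 called members with the smallest p per list (or the tested member with the smallest p). The H2A.Z genes, the 6 most abundant called genes and the 8 with the smallest interaction p completed it. Exceptions, named for their role or place after their values were seen, are cdkn1a, BAX, GADD45A, DNMT1, fosaa, cldnb, cldne, ELAVL3, CHEK1, GPBP1L1, ORC1, PCF11 and the called members listed without a full account. The alternatives were another tool (DESeq2 1.42.0), scaling, filter, depth and set of libraries, a replicate block, and each library left out in turn. Deviations of same-numbered libraries from their group means, over all tested genes, correlated between -0.0265 and 0.024. Counting error at genes with few counts also pulls such correlations towards none, so whether replicate numbers pair the libraries stays unknown. The scripts were tested on simulated data. The authors' deposited comparison tables were not used, and single values of a few list members are not reported here.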

Additional observations from a re-analysis of the deposited data

Results flagged for a closer look

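The results here concern the interaction, the difference between H2A.Z-mCherry and wild type with 5AzadC minus that with DMSO. Of the 461 genes where it had an edgeR adjusted p under 0.05, only those named by rule or as exceptions are given. Values are log2, and no group of 3 libraries is large enough for an outlier test. No explanation was weighed.

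Among immediate early genes the interaction was -3.39 for PTGS2 (ENSDARG00000010276), -3.36 for JUNB ENSDARG00000104773, -4.64 for JUNB ENSDARG00000074378, -3.16 for FOS, -2.65 for FOSL1 and -4.48 for fosaa. Among p53 targets and stress genes it was -1.36 for mdm2, -1.73 for cdkn1a, -1.37 for TP53INP1, -0.94 for SESN1, -0.77 for BTG2, -1.20 for TXNIP and -0.81 for DDIT4. Both sets were lower in H2A.Z-mCherry with 5AzadC.

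Among skin genes it was -0.75 for krt4, -1.3 for krt17, -0.82 for cyt1 and -2.06 for cldnb, and 0.76 for TFAP2C. In the DNA methylation list it was 1.06 for UHRF1 and 0.57 for dnmt3ba. In the replication and repair lists it was 0.83 for MCM2, 0.59 for MCM3 and 1.91 for CHEK1, and -1.05 for XRCC5, -1.16 for REV1 and -0.58 for CCNB1.

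Among neural genes it was 0.80 for sox19b, 0.83 for SOX3 and 1.58 for NCAM1 (ENSDARG00000056181). In mesoderm and hox lists it was 0.74 for msgn1, -1.22 for MEOX1, -1.01 for the haematopoietic factor npas4l and -1.17 for HOXC6 (ENSDARG00000070343). Among matrix genes it was 1.27 for col4a6, 1.36 for COL5A2 and 0.76 for COL11A1, and it was -0.71 for NOTCH1 ENSDARG00000103554.

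Outside the lists it was -2.66 for ftr86, -1.98 for crb2a, 1.11 for ADISSP, 1.21 for asph and 1.38 for FSTL1, and 6.29 for CSRP3, a fitted value that depends on the prior count because wild type with 5AzadC had no count. Among abundant or chromatin genes it was -0.57 for the translation factor gene eef1a1l1, -0.44 for actb2, -0.44 for rn7sl1-2 and -0.52 for BRD2. Of 43 such calls among genes named by rule, 28 kept their call under every alternative that gave a value. The other 15, and CHEK1, lost theirs under 1 alternative or more, and the highest adjusted p of each came with a library left out or at equal depth. Without wild-type 5AzadC replicate 1 it was 0.0913 for BRD2, 0.065 for CSRP3, 0.178 for sox19b, 0.0561 for HOXC6, 0.115 for npas4l, 0.0558 for MCM3 and 0.186 for COL11A1. Without H2A.Z-mCherry 5AzadC replicate 1, 2 or 3 it was 0.103 for COL5A2, 0.134 for CHEK1 and 0.19 for msgn1, in that order of replicates. Without wild-type 5AzadC replicate 3 it was 0.117 for NCAM1. Without a DMSO library it was 0.164 for REV1 (wild-type replicate 1), 0.188 for MEOX1 (wild-type replicate 3) and 0.0986 for SESN1 (H2A.Z-mCherry replicate 2). At equal depth it was 0.195 for SOX3 and 0.266 for CCNB1.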

How the results depend on the processing

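With 5AzadC the count of 1918 called genes was 1692 in DESeq2, 1751 with the 6 libraries alone, 1931 with RLE and 1915 with upper quartile factors. It was 1772 with no filter on low counts, 1948 with a 5 CPM filter and 1590 at equal depth. Without rn7sl1 and rn7sl1-2, an alternative chosen after seeing the data, it was 1912. The replicate block gave 1864, and 1841 of these were among the 1918 (PAX8, with an adjusted p of 0.0635, was not). Without 1 library the count ran from 1401 to 2010 (699 to 1008 higher, 660 to 1002 lower). The interaction count ran from 317 to 562, with 152 to 300 positive (233 with all libraries; 152 without wild-type 5AzadC replicate 1) and 156 to 262 negative. The DMSO count ran from 442 to 737, with 232 to 388 higher and 210 to 349 lower (318 with all libraries; 210 without H2A.Z-mCherry DMSO replicate 3). Of 123 genes named by rule and called, 84 kept their call under every alternative that gave them a value (71 had one under all 21), and 0 changed direction while called. The median log2 fold change of all genes stayed between -0.006 and 0.024. Totals of 1142051 to 1904063 counts limit what can be called for genes under about 10.7 CPM.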
